A study of Rattus norvegicus with 115 samples.

Results

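The regulatory T cell genes described here are Foxp3, Il2ra, Ikzf2, Ctla4 and Icos, 5 of the 17455 gene symbols in the deposited count table. They were taken by symbol, and all 5 were found. They were described in libraries of sorted leukocytes from rat mammary tumours, by the treatment of the rat and by the growth class of the tumour, both as a share of all counts and relative to Cd3e, which encodes the CD3 epsilon subunit that T cells carry with their antigen receptor.

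All rats were virgin Sprague Dawley animals given the carcinogen N-nitroso-N-methylurea (NMU) intraperitoneally, in 1 to 3 doses of 50 mg/kg at an age of 35 to 53 days. Once tumours could be felt, rats of 1 cohort received vehicle, the TGFBR1 inhibitor LY2157299 (a small molecule against this TGF-beta receptor kinase, also called galunisertib), a monoclonal antibody against PD-L1, or the inhibitor and the antibody together. A second cohort had NMU tumours and no treatment. The labels give no dose or duration of these treatments and no age at that time. Tumours were digested with collagenase and sorted, and RNA was amplified from under 10 ng before sequencing.

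The names of the count table's columns give a rat and a tumour but not the sorted fraction. Columns with a Ptprc level of at least 300 CPM (a gene's count scaled to a common library total) were taken as leukocyte libraries. Ptprc encodes the leukocyte surface protein CD45. This chose 44 columns from 31 rats and left 63, with no tumour contributing more than 1. The threshold lay in a gap of Ptprc levels, since the 2 columns just below it had 165 and 124 CPM of Ptprc and the 3 just above it had 486, 498 and 526 CPM. The arms held 12 libraries of 8 vehicle rats, 7 of 5 rats on the TGFBR1 inhibitor, 8 of 5 rats on anti-PD-L1 and 8 of 6 rats on the combination, and 9 libraries came from 7 rats with untreated tumours. Total counts ran from 6609198 to 29727437 per library. The leukocyte libraries held 2.40 to 197 CPM of Epcam, an epithelial surface gene whose median in the columns left was 1869 CPM.

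Libraries of 2 vehicle tumours stood apart. The third tumour of rat P5 and the second of rat P6 had 21.7 and 25.8 CPM of Cd3e, against a median of 848 CPM over the 35 libraries of the 4 arms. Their 10 T cell markers summed to 626 and 456 CPM, below the 2810 to 7537 CPM of the other 33 libraries. Their 7 macrophage markers summed to 7198 and 7835 CPM, against a median of 635 CPM and a maximum of 7986 CPM in the others. The fitted differences of the arms are given with and without these libraries.

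Regulatory T cells restrain other T cells and are common in many solid tumours. Foxp3 is the transcription factor that defines the lineage. Signals through the IL-2 receptor sustain these cells, and TGF-beta, which signals through TGFBR1, can induce Foxp3 in naive CD4 T cells. Il2ra encodes CD25, the chain that gives the IL-2 receptor its high affinity, and Ikzf2 encodes Helios, a transcription factor of the Ikaros family. Ctla4 and Icos encode receptors of the CD28 family: CTLA-4 removes the B7 ligands CD80 and CD86 from antigen-presenting cells, and ICOS is a costimulatory receptor. Activated conventional T cells also express Il2ra, Ctla4 and Icos, so of the 5 genes Foxp3 is the one most particular to the lineage.

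The promoters of 3 of these genes are printed because Foxp3 and Il2ra had the highest of the correlations between Foxp3 and the other 4 genes, and Ikzf2 the lowest. Each run is the 250 bases before the RefSeq start of the gene on assembly GRCr8, 5′ to 3′ on the gene's strand. Capitals mark matches, on either strand, to 2 motifs, the TATA box motif TATAAA and the core of NFAT sites, GGAAA.
Foxp3, chrX:17595701-17595950, minus strand: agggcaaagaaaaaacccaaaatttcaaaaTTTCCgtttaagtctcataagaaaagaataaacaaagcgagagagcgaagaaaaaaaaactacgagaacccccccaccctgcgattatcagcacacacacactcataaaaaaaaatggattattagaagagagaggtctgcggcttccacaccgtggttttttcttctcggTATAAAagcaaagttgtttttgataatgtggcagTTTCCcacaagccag
Il2ra, chr17:71808476-71808725, minus strand: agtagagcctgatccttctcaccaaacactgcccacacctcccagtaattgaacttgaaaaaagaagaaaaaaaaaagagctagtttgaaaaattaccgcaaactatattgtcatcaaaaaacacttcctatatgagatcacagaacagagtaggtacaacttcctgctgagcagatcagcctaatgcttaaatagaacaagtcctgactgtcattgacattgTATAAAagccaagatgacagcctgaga
Ikzf2, chr9:78640360-78640609, minus strand: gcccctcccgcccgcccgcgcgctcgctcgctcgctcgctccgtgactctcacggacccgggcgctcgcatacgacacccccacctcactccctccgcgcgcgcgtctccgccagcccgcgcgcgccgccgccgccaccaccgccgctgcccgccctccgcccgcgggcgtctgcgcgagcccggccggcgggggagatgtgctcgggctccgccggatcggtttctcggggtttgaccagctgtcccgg

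A TATAAA match was found once each in the windows of Foxp3, Il2ra, Ctla4 and Icos and not in that of Ikzf2, and 12.9% of 33469 promoters of this length hold one. GGAAA was found at 2 places for Foxp3 and 1 for Ctla4, and 56.9% of promoters hold it. TTCNNNGAA (STAT), TGTGGT (RUNX) and TGTTTAC (forkhead), held by 7.67%, 14.5% and 3.21% of promoters, had no match in any of the 5 windows.

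The median level of Foxp3 was higher in each treated arm than in vehicle as a share of all counts, but no arm was separated from vehicle. Counts were summed per rat, since the rat was the treated unit. The 8 vehicle rats had 34.05 to 225 CPM of Foxp3 with a median of 90.2 CPM. The 5 rats on the TGFBR1 inhibitor had 113, 125, 163, 196 and 332 CPM, and the 5 rats on anti-PD-L1 had 119, 138, 141, 169.8 and 218 CPM. The 6 combination rats had 108.8 to 346 CPM, with a median of 158 CPM. Every treated rat lay above the vehicle median. Vehicle rat P7, at 225 CPM, nevertheless exceeded 4 of 5 rats on the inhibitor, all 5 on the antibody and 4 of 6 on the combination. In bulk libraries, more cells of a type and more RNA per cell cannot be told apart.

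In edgeR's quasi-likelihood fit over all 11932 genes tested, the fitted Foxp3 difference was 2.03-fold for the combination (log2 1.02, SE 0.385, adjusted p = 0.210), 1.78-fold for the inhibitor (log2 0.83, SE 0.403, adjusted p = 0.291) and 1.51-fold for the antibody (log2 0.60, SE 0.404, adjusted p = 0.550). None passed the adjusted threshold of 0.05. No gene of the table did in these comparisons, so 0% were called in each arm, while 17.1%, 11.8% and 15.7% had an unadjusted p below 0.05 for the inhibitor, the antibody and the combination. DESeq2 called 433, 151 and 335 genes in the same order, none of them among these 5. The 3 comparisons share the vehicle rats and are not independent. Without the libraries that stood apart, the log2 differences of Foxp3 were 0.88, 0.70 and 0.45 for the combination, the inhibitor and the antibody. On the same libraries, for the inhibitor, the antibody and the combination, they were 0.80, 0.44 and 0.73 for Il2ra and 0.65, 0.57 and 0.51 for Ctla4. Those of Icos were 0.57, 0.50 and 0.42 and those of Ikzf2 0.081, 0.17 and 0.31, and none passed.

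**Figure D1:**
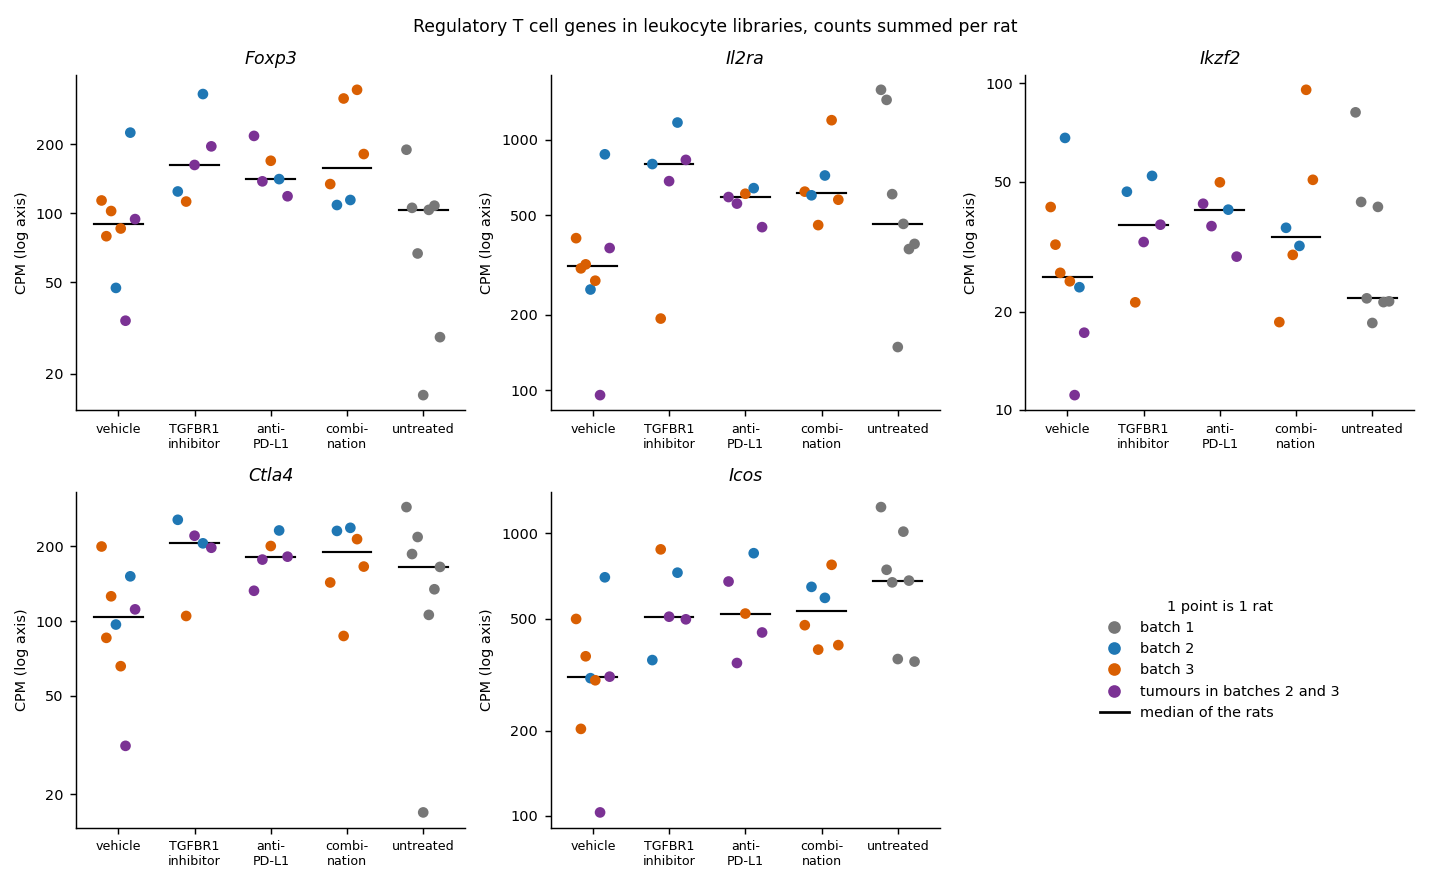
Level of each gene in CPM, on log axes, in leukocyte libraries summed per rat (1 point is 1 rat, coloured by batch as the deposited sample table numbers it; lines are medians) for the 4 arms and the untreated tumours. All treated rats lie above the vehicle median of 90.2 CPM for Foxp3, and the groups overlap for every gene.

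Il2ra, the IL-2 receptor chain, also had a higher median in each treated arm, and again no arm was separated from vehicle. The vehicle rats had 95.5 to 876 CPM with a median of 312 CPM. Rats on the inhibitor had 193, 684, 800.9, 832 and 1174 CPM, those on the antibody 448, 557, 591, 609 and 642 CPM, and those on the combination 457 to 1199 CPM with a median of 611 CPM. Rat P17 on the inhibitor was the 1 treated rat of 16 below the vehicle median. The fitted log2 differences were 0.92 (SE 0.377, adjusted p = 0.224), 0.56 (SE 0.378, adjusted p = 0.550) and 0.85 (SE 0.360, adjusted p = 0.259) for the inhibitor, the antibody and the combination in edgeR.

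Ctla4 had the smallest unadjusted p of the 5 genes for the antibody. The vehicle rats had 31.4 to 199.6 CPM with a median of 104.1 CPM, and those on the antibody 132, 177, 182, 201 and 232 CPM. Rats on the inhibitor had 104.8, 197, 206, 221 and 256 CPM, and the combination rats 87.05 to 237 CPM with a median of 189.8 CPM. Each arm thus had rats inside the vehicle range. The fitted log2 differences from vehicle were 0.69 for the antibody (SE 0.287, adjusted p = 0.379), 0.76 for the inhibitor (SE 0.287, adjusted p = 0.194) and 0.62 for the combination (SE 0.274, adjusted p = 0.276), by edgeR.

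Icos, the costimulatory receptor, had 102.9 to 699.6 CPM in vehicle rats with a median of 309 CPM. Rats on the inhibitor had 356, 497, 507, 727 and 879 CPM, those on the antibody 348, 446, 521, 676 and 852 CPM, and the combination rats 388 to 775 CPM with a median of 533 CPM. All 16 treated rats were above the vehicle median and most were below the highest vehicle rat. The log2 differences were 0.68, 0.62 and 0.54 for the inhibitor, the antibody and the combination, with edgeR adjusted p of 0.307, 0.469 and 0.416.

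Ikzf2 differed least from vehicle. Its level was 11.1 to 68.1 CPM in vehicle rats with a median of 25.5 CPM. It was 21.3, 32.7, 36.9, 46.6 and 52.1 CPM under the inhibitor, 29.5, 36.5, 41.04, 42.8 and 49.8 CPM under the antibody and 18.6 to 95.5 CPM, with a median of 33.9 CPM, under the combination. Vehicle rat P4, the highest of its group, was above every rat of both single treatments. The log2 differences were 0.23 (SE 0.361), 0.31 (SE 0.360) and 0.45 (SE 0.342) for the inhibitor, the antibody and the combination.

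All 5 genes thus had positive fitted differences in each arm, with medians of 0.76, 0.60 and 0.62 on the log2 scale for the inhibitor, the antibody and the combination, beside medians of 0.00, -0.02 and 0.01 over all genes tested. Cd3e was itself higher by 0.66, 0.33 and 0.49, more than Cd3d (0.14, 0.20 and 0.093) and Cd3g (0.11, 0.039 and 0.17), which encode other CD3 subunits. The list of 10 T cell markers had medians of 0.19, 0.12 and 0.22, and none of these genes passed. The macrophage markers moved the other way: all 7 had lower fitted values in each arm, with median log2 differences of -2.45, -2.17 and -2.49. Their summed level per rat was 177 to 6433 CPM in vehicle rats with a median of 1684 CPM, and had medians of 394, 531 and 436 CPM in the arms. The values of the Cd3 genes and of both marker lists include the vehicle libraries that stood apart, which were low in Cd3e and high in macrophage markers. The part of these other cells in the differences was not tested beyond the comparison with Cd3e.

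One choice of libraries changed the call. When libraries with 100 CPM or more of Epcam were left out, a single vehicle tumour (rat P7, 111 CPM of Epcam) and a single tumour on the inhibitor (rat P22, 197 CPM) were removed. The latter, the second tumour of P22, is one whose labels and deposited sample table disagree. Under the inhibitor edgeR then called 8.52% of the genes tested, among them Foxp3 (log2 1.30, adjusted p = 0.0359), Il2ra (1.41, adjusted p = 0.0212), Ctla4 (0.93, adjusted p = 0.0483) and Icos (1.00, adjusted p = 0.0469), but not Ikzf2 (0.26, adjusted p = 0.715). Rat P7 had the highest Foxp3, Il2ra and Icos of the vehicle group. With P7 alone left out, 2.5% of genes were called under the inhibitor, among them 1 of the 5, Il2ra (log2 1.25, adjusted p = 0.0448). With P7 in place, the inhibitor's difference for these genes stayed short of the threshold for each other rat left out.

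Relative to Cd3e, which sets the level against the T cells of the same library, all 15 fitted differences were lower. Foxp3 stood at 8.25 to 25.1 counts per 100 Cd3e counts in vehicle rats, with a median of 14.97. It stood at 8.01, 9.72, 17.6, 22.04 and 34.8 in rats on the inhibitor, and at 13.03, 13.9, 15.1, 24.1 and 28.5 in rats on the antibody. The combination rats ran from 8.72 to 52.03 with a median of 16.01. The arm medians were within a few counts of the vehicle median, and 3 of 5, 3 of 5 and 3 of 6 rats of the 3 arms lay above it. Rats P33 and P35 of the combination arm, at 52.03 and 50.8, were higher than all other rats of the study, while 3 of the other 4 in that arm were at 8.72, 9.73 and 10.5. P33 and P35 had libraries of batch 3 only. The rats at 8.72 and 10.5 (P31 and P34) had libraries of batch 2 only, and the rat at 9.73 (P23) of batch 3 only.

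With the Cd3e count as the library size in the edgeR fit, the log2 differences of Foxp3 were 0.31 (SE 0.420), 0.35 (SE 0.419) and 0.78 (SE 0.398, adjusted p = 0.165) for the inhibitor, the antibody and the combination. Those of Il2ra were 0.44, 0.31 and 0.56, and those of Ctla4 0.21, 0.40 and 0.24. Icos had 0.08, 0.35 and 0.21, and Ikzf2 had -0.49, -0.10 and 0.06. None of these passed. Without the libraries that stood apart, Foxp3 had 0.29, 0.33 and 0.77, and no gene changed direction. The choice of scale moved these values. With Cd3d, Cd3e and Cd3g together as the scale, the inhibitor's differences were 0.63 for Foxp3, 0.77 for Il2ra, 0.55 for Ctla4, 0.39 for Icos and 0.0067 for Ikzf2. On that scale the antibody and the combination had 0.45 and 0.84 for Foxp3, 0.42 and 0.65 for Il2ra, 0.54 and 0.39 for Ctla4, 0.49 and 0.34 for Icos and 0.17 and 0.28 for Ikzf2. None passed there either. The log2 ratios per rat, against 8 vehicle rats, were also compared by an exact permutation test, two-sided. Here the ratios of a rat's tumours were averaged, where the fits used summed counts. Vehicle rat P6, with its library that stood apart, thus had a mean log2 ratio of -4.71 for Foxp3. Its summed counts gave 16.04 per 100 Cd3e counts. Over the 15 comparisons the smallest p was that of Ctla4 under the antibody (difference 0.46, exact p = 0.0513, 0.556 after adjustment over the 15), and Foxp3 under the combination had exact p = 0.193.

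Against Cd3e the median gene had log2 differences of -0.87, -0.58 and -0.68 in the 3 arms, so most genes stood lower per Cd3e count. Under the inhibitor 24.7% of genes were called on this scale, 3 higher and 2949 lower, none of them among the 5, and in the other arms 0% were called. That count fell to 0 without the 2 vehicle libraries low in Cd3e, and to 0 when any 1 of rats P6, P16, P17 or P21 was left out, or with Cd3d, Cd3e and Cd3g together as the scale. Beside the medians over all genes, the 5 genes had medians of 0.21, 0.35 and 0.24.

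**Figure D2:**
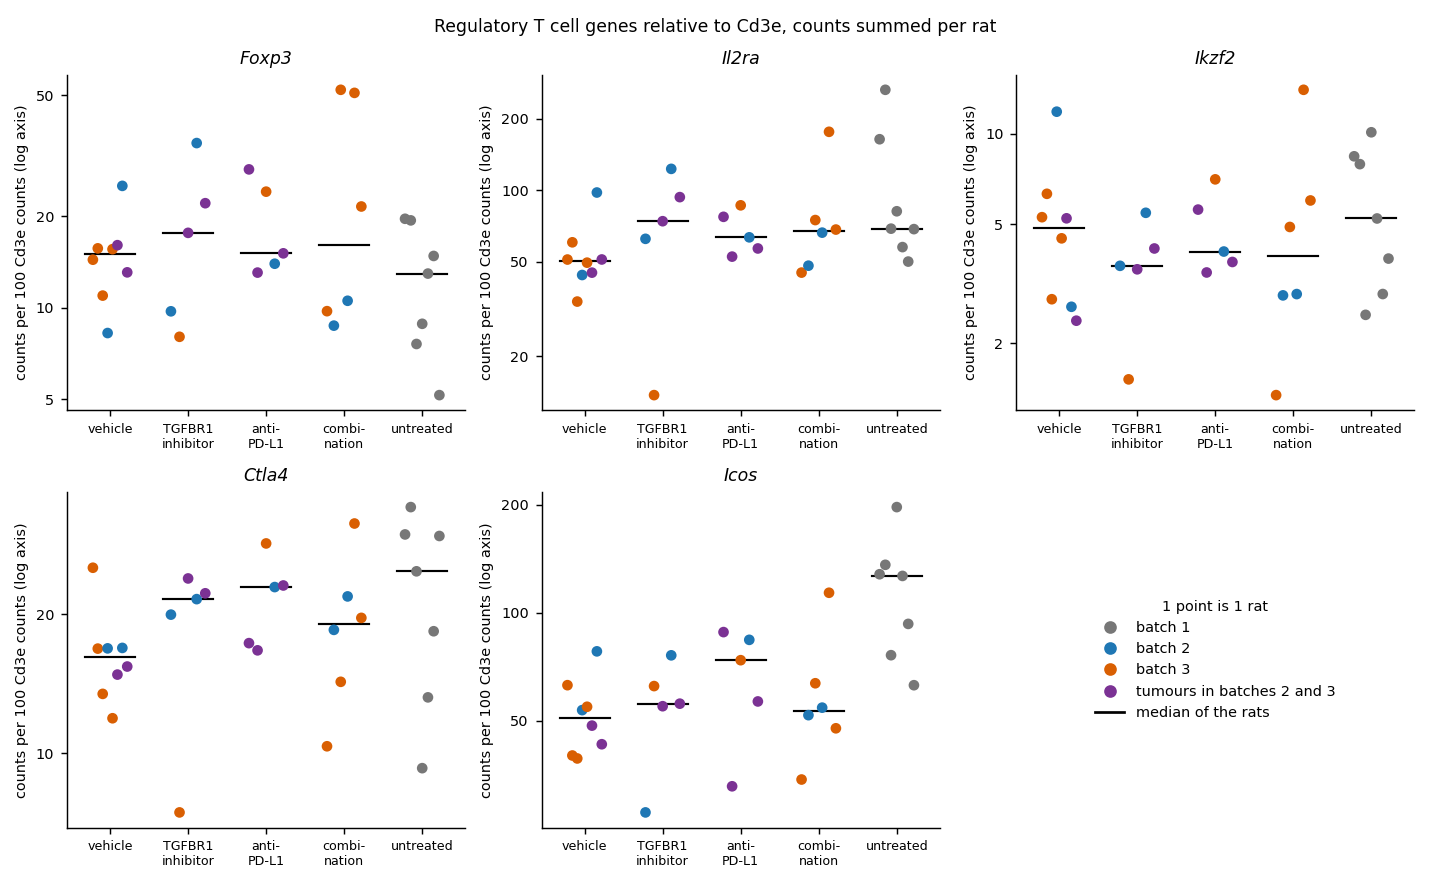
Counts of each gene per 100 counts of Cd3e, on log axes, with points, colours and medians by rat and group. The arm medians of Foxp3 lie between 15.08 and 17.6, with combination rats P33 and P35 above 50, and the untreated rats reach the highest Icos values.

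**Figure D3:**
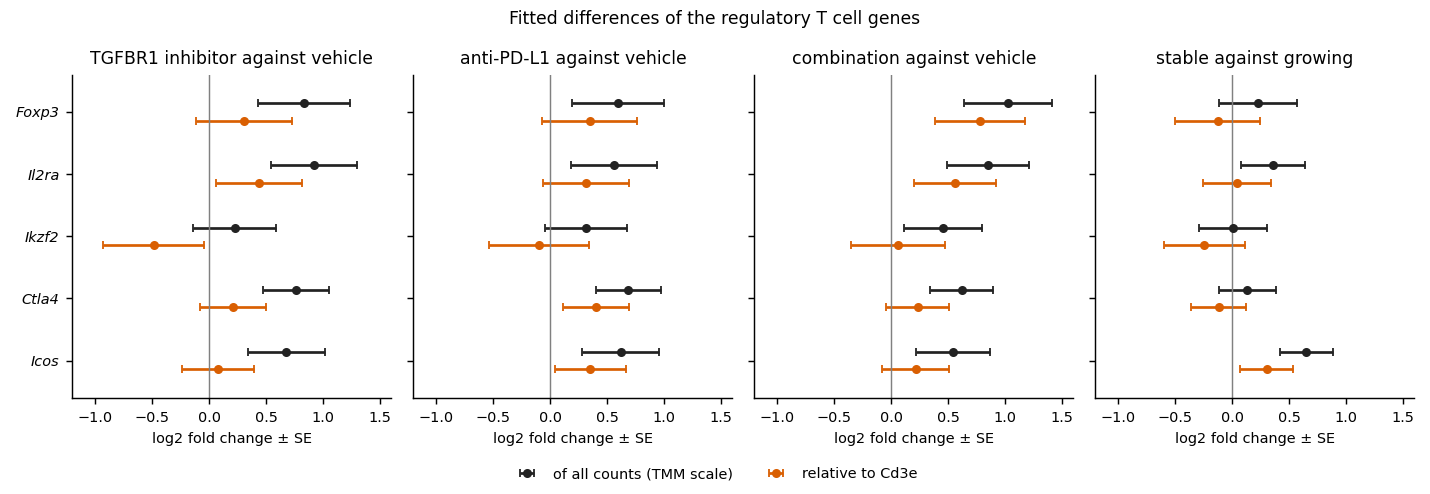
Fitted log2 fold changes with their SE for the 5 genes in 4 comparisons, on the scale of all counts (black) and relative to Cd3e (orange). Values on the scale of all counts are above 0 throughout, values relative to Cd3e lie below them in all 4 comparisons, and none passed the adjusted threshold.

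Other genes of the pathways were counted from lists of related genes. Except where stated, the values of all these lists and their genes include the vehicle libraries that stood apart. In the IL-2 axis (the cytokine, its receptor chains, JAK and STAT5 genes and feedback inhibitors), 0 of 12 passed in any arm, and 8, 10 and 9 had positive fitted differences for the inhibitor, the antibody and the combination. Their medians were 0.51, 0.47 and 0.57. Il2rb, the signalling chain shared by the IL-2 and IL-15 receptors, had a log2 difference of 1.06 under the inhibitor (unadjusted p = 0.00267, adjusted p = 0.141). Il7r, the receptor chain for IL-7, had 1.46 under the combination (unadjusted p = 0.000145, adjusted p = 0.131), and Il15 had -1.45 under the inhibitor (unadjusted p = 0.000223, adjusted p = 0.136).

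Of the regulatory T cell surface and effector genes, 16 of 18 were tested and none passed. Positive differences were fitted for 13, 11 and 13 of them, with medians of 0.40, 0.38 and 0.54. Lag3 (an inhibitory receptor) and Gzmb (granzyme B), which cytotoxic cells also express, had log2 differences of 1.34 and 1.74 under the inhibitor. Of the transcription factors of the lineage, 9 of 11 were tested and none passed, with medians of 0.45, 0.32 and 0.49. Of the CD28 and B7 family, 7 of 8 were tested and none passed, with medians of 0.71, 0.70 and 0.58. Relative to Cd3e under the inhibitor, 3 list genes were called lower: Entpd1 (the ectonucleotidase CD39, log2 -1.89), Capg (an actin-capping protein, -1.63) and Il15 (-2.23). Macrophages express these genes as well, and 6 of 7 macrophage markers were called lower on that scale, where 24.7% of all genes were called. No gene was called without the 2 vehicle libraries that stood apart, which are rich in macrophage markers, or with the 3 Cd3 genes as the scale.

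Stable and growing tumours were compared within the 4 arms, with counts summed per rat and growth class. The class is the deposited table's own, and its rule is not given in the sources used here. Among tumours with a leukocyte library there were 8 stable ones of 7 rats and 26 growing ones of 19 rats, and 1 had no class. These stable tumours comprised 1 vehicle, 2 inhibitor, 2 antibody and 3 combination tumours, so class and arm are linked. Class and batch are linked as well, with 6 of the 8 stable tumours and 10 of the 26 growing ones in batch 2. Rats P24 and P31 had tumours of both classes, which this fit treats as independent libraries.

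Icos differed most between the classes. It stood at 310 CPM in the stable tumour P31T2, 402 CPM in P36T3 and 699.6, 727, 782, 850, 852 and 879 CPM in the other 6, a median of 754 CPM. The growing tumours had 15.9 to 775 CPM with a median of 399.8 CPM, and of these only tumour P35T1 exceeded the lowest of those 6, while P31T1 was level with it. The fitted log2 difference was 0.65 (SE 0.232, unadjusted p = 0.00948, adjusted p = 0.222 in edgeR), where 0% of 12364 genes were called and 13.8% had an unadjusted p below 0.05. DESeq2 gave Icos an adjusted p of 0.0674. With each tumour a library and the rat as a block, limma voom gave 0.61 (unadjusted p = 0.197, adjusted p = 0.535). With Epcam under 100 CPM, which leaves out the stable tumour of rat P7, edgeR gave 0.43 (unadjusted p = 0.107, adjusted p = 0.8345). With batch as a covariate edgeR gave 0.73 (unadjusted p = 0.00787, adjusted p = 0.218). Within batch 2 the difference was 1.196, and within batch 3, with 2 stable tumours, it was 0.12. The growing tumours of batch 2 include that of rat P6 which stood apart, at 15.9 CPM of Icos. The batch 2 difference was not computed without it. Over both batches, without the libraries that stood apart, the difference was 0.61. Relative to Cd3e, with all libraries, the difference was 0.30 (SE 0.235, adjusted p = 0.590).

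For the other 4 genes the classes overlapped throughout. Foxp3 stood at 83.7 to 332 CPM in the stable tumours with a median of 128 CPM and at 0.174 to 346 CPM in the growing ones with a median of 116 CPM. The fitted log2 differences were 0.23 for Foxp3 (SE 0.342), 0.36 for Il2ra (SE 0.280), 0.13 for Ctla4 (SE 0.249) and 0.01 for Ikzf2 (SE 0.299). With batch as a covariate they were 0.61 for Foxp3 (edgeR unadjusted p = 0.107, adjusted p = 0.470), 0.29 for Il2ra, 0.0069 for Ctla4 and -0.021 for Ikzf2. The direction of Foxp3 depended on the libraries: it was 1.53 within batch 2 and -0.85 within batch 3, and -0.21 with the treated arms alone. Without vehicle rat P7 it was -0.22. Il2ra likewise had 1.29 within batch 2, -1.23 within batch 3 and -0.052 with the treated arms alone. The batch 2 values include the growing tumour of rat P6 that stood apart, at 0.174 CPM of Foxp3 and 2.26 of Il2ra. They were not computed without it. Over both batches, without the libraries that stood apart, Foxp3 had 0.17 and Il2ra 0.31. The 7 macrophage markers were all lower in stable tumours, with a median log2 difference of -1.83, and their part in these differences was not tested. Both libraries that stood apart, which are rich in these markers, are of growing tumours. That median includes them and was not computed without them.

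**Figure D4:**
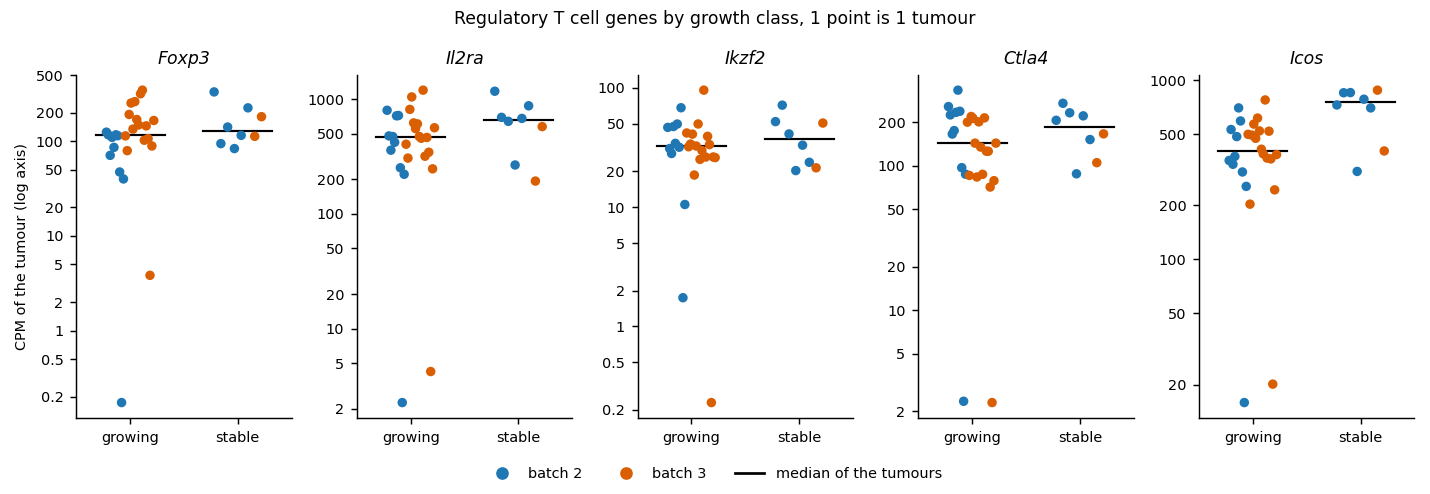
CPM of each gene, on log axes, in leukocyte libraries of growing and stable tumours (1 point is 1 tumour, coloured by batch; lines are medians). For Icos, 6 of the 8 stable tumours lie between 699.6 and 879 CPM, near the top of the growing tumours, and 2 lie lower.

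Foxp3 also differed with the batch that the deposited table numbers 2 or 3. This was looked for after the values were seen. Batches were spread over the arms, with 4 vehicle rats in batch 2 and 6 in batch 3, and 7 rats had a tumour in each. Foxp3 per 100 Cd3e counts was 14.3 in the batch 2 tumour and 19.3 in the batch 3 tumour of rat P19, and 8.10 and 28.2 in those of P22, both on the inhibitor. In the same order it was 9.61 and 38.1 in P24, 10.7 and 15.2 in P26 and 10.2 and 20.1 in P29, on the antibody. In vehicle rats it was 6.36 and 19.5 in P8 and 0.676 and 17.3 in P6, whose batch 2 tumour is one of those low in Cd3e. That low value rests on 2 counts of Foxp3, fewer than the 3 that a count of 0 allows (0.101 to 0.454 CPM over the leukocyte libraries), with an exact Poisson 95% interval of 0.0818 to 2.44 that covers counting error only. The batch 3 tumour was higher in 7 of 7 rats, with a median log2 difference of 1.62. For P22 the labels give 3 fractions to the first tumour and the deposited sample table gives them to the second, whose listed read files name other fractions. It was higher in 6 of 6 rats without P22.

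Il2ra per Cd3e was higher in the batch 3 tumour in 7 of 7 rats as well, with a median of 0.49. Ikzf2, Ctla4 and Icos were higher in 2, 3 and 3 of the 7. In an edgeR fit with the rat as a block, Foxp3 relative to Cd3e was higher in batch 3 by 1.56 (SE 0.619, adjusted p = 0.343), where 1.26% of genes were called. Without rat P6 the difference was 1.22 (SE 0.245, adjusted p = 0.0207), with 1.56% called. On the scale of all counts Foxp3 had 1.78 (adjusted p = 0.238, 2.26% called) and, without P6, 1.31 (SE 0.248, adjusted p = 0.0197, 1.84% called). The sample table lists 1 read file for every sample of batches 1 and 2 and 2 for every sample of batch 3. Tumour, batch and the number of read files cannot be told apart in these pairs.

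**Figure D5:**
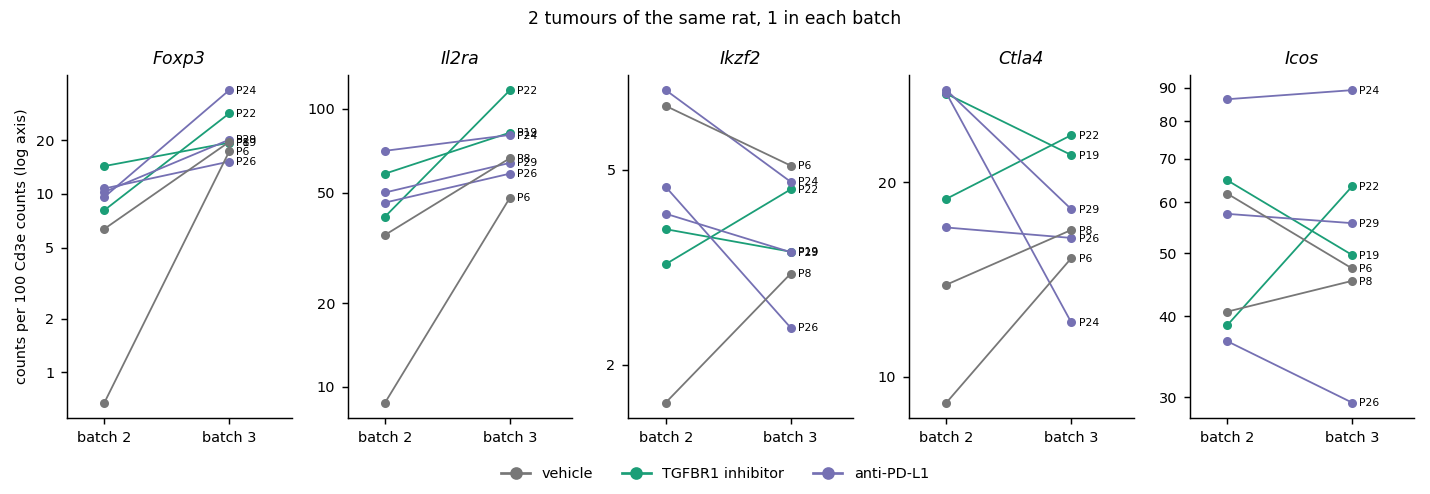
Counts per 100 Cd3e counts, on log axes, in 2 tumours of the same rat, 1 in each batch (1 line is 1 rat, coloured by arm). Foxp3 and Il2ra are higher in batch 3 in 7 of 7 rats, while the lines of Ikzf2, Ctla4 and Icos run both ways.

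The arms were compared again with batch taken into account. With batch as a covariate the log2 differences of Foxp3 were 1.01, 0.86 and 0.60 for the combination, the inhibitor and the antibody. Within batch 3 they were 1.33 (unadjusted p = 0.000731, adjusted p = 0.246), 0.83 and 0.82, and within batch 2 they were 0.29, 1.00 and 0.27. The vehicle libraries that stood apart are included, that of rat P6 in batch 2 and that of rat P5 in batch 3. Relative to Cd3e, the combination's Foxp3 difference was 0.68 with batch as a covariate (edgeR adjusted p = 0.236). On that scale it was 1.11 within batch 3 and -0.08 within batch 2, where that arm had 2 rats.

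Tumours of the same rat differed from each other. Over the 9 rats with more than 1 leukocyte library, the highest Foxp3 per Cd3e was 1.28 to 25.6 times the lowest, with a median of 1.963. The ratio of 25.6 is that of rat P6 and rests on the library with 2 counts of Foxp3. In 7 of the 9 rats the tumours were in different batches, so tumour and batch cannot be told apart in their ratios. Rats P5 and P31, each with tumours of a single batch, had ratios of 1.28 and 1.39. For Ctla4 this ratio had a median of 1.25 and for Icos 1.30, the smallest of the 5 genes. Il2ra and Ikzf2 had medians of 1.501 and 1.54.

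The leukocyte libraries of untreated tumours were all in batch 1, so their difference from vehicle cannot be told apart from batch and was not tested. Foxp3 stood at 16.1 to 189.7 CPM in these 7 rats with a median of 103.7 CPM, inside the range of the treatment cohort apart from 2 low rats. Per 100 Cd3e counts, Icos stood at 62.8 to 197 with a median of 127, against 39.3 to 78.1 in vehicle rats, and 5 of 7 were above the highest vehicle rat. Il2ra reached 164 in rat C10 and 264 in rat C11, the others standing at 50.1 to 81.5.

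Across the 24 rats of the 4 arms, the genes whose log2 CPM was most like that of Foxp3, by Pearson's correlation among 7939 genes, were Il4r (0.91), Cd80 (0.89), Plpp5 (0.89), Phlda1 (0.89), Clint1 (0.88), Stat5a (0.88), Gtf2ird1 (0.87), Gata3 (0.87), Ccm2 (0.87) and Hsdl2 (0.87). Il4r encodes the IL-4 receptor alpha chain, Cd80 a B7 ligand of CTLA-4 and CD28, Stat5a a transcription factor downstream of the IL-2 receptor, and Gata3 a transcription factor of T helper cells. After a linear fit on Cd3e was removed, the 10 highest were Cd80 (0.91), Phlda1 (0.89), Il4r (0.89), Plpp5 (0.87), Hsdl2 (0.87), Uap1 (0.87), Coro1c (0.86), Clint1 (0.86), Stat5a (0.85) and Picalm (0.85). Without that fit, in batch 2 alone (14 rats), Gata3 had 0.97, Stat5a and Clint1 0.81, Cd80 0.79 and Gtf2ird1 0.78. Il4r had 0.75 there, Phlda1 0.69, Ccm2 0.64, Hsdl2 0.53, Picalm and Coro1c 0.50, Plpp5 0.47 and Uap1 0.12. In batch 3 alone (17 rats) the same genes had 0.69 to 0.90. All these values describe rats that share batches, depth and makeup, and carry no test.

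The other 4 members ranked lower: Il2ra was 36th (0.82), Icos 224th (0.71), Ctla4 744th (0.57) and Ikzf2 1102nd (0.49), and Cd3e was 1366th (0.45). Among all pairs of the 5 genes, Il2ra and Ctla4 were the most alike (0.83). In batch 2 alone, over 14 rats, Foxp3 had correlations of 0.99 with Il2ra, 0.96 with Ctla4 and 0.96 with Icos. There rat P6 was represented only by its library that stood apart, with 0.174 CPM of Foxp3, 2.26 of Il2ra and 2.35 of Ctla4. A point so far below the others weighs heavily in these correlations, and they were not computed without it. In batch 3 alone, over 17 rats, these were 0.80, 0.46 and 0.63, and Clint1 (0.90) and Cd80 (0.88) were higher. Over both batches, without the 2 libraries that stood apart, Ctla4 had 0.38 and Ikzf2 0.34 over the 24 rats, while Il4r had 0.91.

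Foxp3 per Cd3e was set against the deposited CD8 fraction, whose denominator is not given in the sources used here, over the 20 rats with a value. Pearson's r was -0.03 (permutation p = 0.987) and Spearman's rho -0.12 (permutation p = 0.609). Without rats P7 and P28, those farthest from the median fraction, r was -0.11. Within batch 2 (11 rats) r was 0.44 and rho 0.35 (permutation p = 0.233 and 0.300), and r was 0.26 without rats P7 and P28. Within batch 3 (14 rats) r was -0.35 (permutation p = 0.179) and rho -0.58 (permutation p = 0.0332, 0.199 after adjustment over the 6 p-values), and r was -0.69 without rats P5 and P27. No relation passed after adjustment.

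Most columns below the Ptprc threshold held little of these genes. Their medians were 0.439 CPM for Foxp3, 1.69 for Il2ra, 1.97 for Ikzf2, 0.369 for Ctla4 and 2.75 for Icos, all below the lowest rat of the 4 arms. The highest values of these columns were those of untreated tumour C5T1, with 145.7 CPM of Foxp3, 408 CPM of Il2ra, 655 CPM of Icos and 1100 CPM of Cd3e at 165 CPM of Ptprc. It was left out of the leukocyte libraries by the rule. The labels list this tumour in a CD45 fraction and another labelled Ep. Its other column had 2545 CPM of Epcam and 4.47 CPM of Cd3e, so by these genes the column left out is the CD45 library.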

How the data were processed

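RNA of sorted fractions of tumours and glands was sequenced (115 labelled samples, 45 of them CD45 tumour samples). The authors deposited whole-number counts per gene symbol as 1 table. The submitters' processing notes name FastQC, STAR and the genome build rn6. Their versions and settings, the counter, its annotation and any use of strand were not given in the sources used here. Without molecular identifiers, count floors cover counting error only. The deposited sample table gave batch, growth class and the CD8 fraction, a value from 0 to 1 per the file headers; for some samples its fraction and its read file name disagree. The labels' sample names tied 13 columns to 1 sample and the others only to a treatment; 1 unnamed column was not used. Where labels do not show that libraries are separate preparations of separate rats, p-values measure only the spread between these samples.

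CPM use column totals. Counts summed per rat, or per rat and growth class, were tested with edgeR 4.0.16 (R 4.3.3; quasi-likelihood, robust, TMM, filterByExpr, all groups in 1 fit) with Benjamini-Hochberg adjustment over all genes tested at 0.05, and again with the Cd3e count plus 0.5 as library size. The fit was tested on simulated data. Limma 3.58.1 (voom), DESeq2 1.42.0, exact permutation tests and other choices of libraries were alternatives; those by batch, without the 2 rats farthest in CD8 fraction, and the within-rat batch comparison were added after seeing the data. Correlations used log2 CPM (TMM, prior count 2) of genes averaging at least 3, and 100000 permutations.

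The members and gene lists were chosen with earlier results of these data known. Named genes are the 5 members, Cd3e, Ptprc, the 10 genes most correlated with Foxp3 before and after Cd3e, and up to 4 passing genes per list; list genes that did not pass, and the single rats, were picked after their values were seen. RefSeq (GRCr8) held 15501 of the symbols and gave the promoters.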

Additional observations from a re-analysis of the deposited data

Results flagged for a closer look

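In each group of 5 to 8 rats, the highest or lowest rat was compared with the others by Dixon's ratio, for each of the 5 genes on both scales. Of 50 such groups, 12 had a rat that stood off, at a level that chance alone passes in about 1 of 20. The groups share rats and counts and are not independent, and whether 12 of 50 exceeds chance was not tested.

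Vehicle rat P7 stood above its group in Foxp3 (225 CPM and 25.1 per 100 Cd3e counts) and Il2ra (876 CPM and 97.8 per 100 Cd3e counts). Its tumour was the 1 stable tumour among the vehicle leukocyte libraries and had 111 CPM of Epcam. Vehicle rat P4 stood above its group in Ikzf2 per Cd3e (11.9) and vehicle rat P13 in Ctla4 per Cd3e (25.2).

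Combination rat P35 stood above its group in Il2ra (1199 CPM and 176 per 100 Cd3e counts), in Ikzf2 per Cd3e (14.03) and in Icos per Cd3e (114). Rat P17 on the inhibitor stood below its group in Ctla4 per Cd3e (7.45), and untreated rat C10 stood above its group in Ikzf2 (81.5 CPM).

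Outside the libraries taken by the Ptprc rule, a column of untreated tumour C5T1 had 145.7 CPM of Foxp3. By its Epcam and Cd3e it is the tumour's CD45 library. The highest vehicle column below the Ptprc threshold had 10.5 CPM.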

How the results depend on the processing

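Of 330 values of the 5 genes under other settings, 299 kept their direction and their side of the threshold, 27 changed direction and 4 passed the threshold. Of 960 values with 1 rat left out, these were 939, 20 and 1. No value of the 5 genes that changed direction passed the threshold before or after, and the cause of the changes was not tested.

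The number of genes called under the inhibitor, the antibody and the combination, 0 in each, became 433, 151 and 335 with DESeq2, and 317 in place of 0 for the growth class. With each column a library and the rat as a block in limma voom, 2 genes were called for the antibody and 276 for the combination. With Epcam under 100 CPM, 1002 were called for the inhibitor and 53 for the combination, and with only columns named as 1 CD45 sample, 16 for the combination. Batch 2 alone gave 530 for the growth class, and here and below batch 2 includes the library of rat P6 that stood apart. Relative to Cd3e, the 2952 genes called under the inhibitor became 1833 with batch as a covariate, 6511 in batch 2 alone, and 0 in batch 3 alone, with Ptprc of at least 600 CPM or with Cd3d, Cd3e and Cd3g as the scale; 7972 were called for the antibody in batch 2 alone. With 1 rat left out, the counts ran from 0 to 297 for the inhibitor, 0 to 42 for the combination and 0 to 267 for the growth class, and relative to Cd3e from 0 to 4290 for the inhibitor and 0 to 2632 for the combination.

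Under the inhibitor, with Epcam under 100 CPM, Foxp3 (1.30), Il2ra (1.41), Ctla4 (0.93) and Icos (1.00) passed. Between growth classes on the scale of all counts, log2 differences that changed direction were -0.021 for Ikzf2 with batch as a covariate, -0.0095 for Ikzf2 with Ptprc of at least 600 CPM, -0.21 for Foxp3 and -0.052 for Il2ra with the treated arms only, and -0.30, -0.13 and -0.014 for Foxp3, Il2ra and Ctla4 with Epcam under 100 CPM. In batch 3 alone they were -0.85, -1.23, -0.37 and -0.41 for Foxp3, Il2ra, Ikzf2 and Ctla4. Relative to Cd3e they were 0.33 for Foxp3 with batch as a covariate, -0.25 for Il2ra with the treated arms only, 0.013 for Foxp3 and 0.031 for Ctla4 on the scale of 3 Cd3 genes, 1.08 for Foxp3 in batch 2 alone, and -1.43 for Il2ra and -0.21 for Icos in batch 3 alone.

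For the arms relative to Cd3e, Ikzf2 became 0.0067 for the inhibitor and 0.17 for the antibody on the scale of 3 Cd3 genes. In batch 2 alone Icos became -0.17 for the inhibitor, and Foxp3, Ikzf2 and Icos became -0.082, -0.97 and -0.14 for the combination. By rat means, Ikzf2 became 0.10 for the antibody and -0.076 for the combination, and Icos -0.035 for the inhibitor. The correlation with the CD8 fraction, -0.03, was 0.44 in batch 2 alone.

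With 1 rat left out, the values that changed direction ran, between growth classes, from -0.22 to 0.46 for Foxp3, -0.066 to 0.57 for Il2ra and -0.12 to 0.17 for Ikzf2, and relative to Cd3e from -0.46 to 0.064 for Foxp3, -0.25 to 0.21 for Il2ra and -0.24 to 0.022 for Ctla4. For the arms relative to Cd3e they ran from -0.052 to 0.50 for Foxp3 and -0.063 to 0.25 for Icos under the inhibitor, -0.28 to 0.20 for Ikzf2 under the antibody, and -0.51 to 0.36 for Ikzf2 and -0.060 to 0.34 for Icos under the combination. No paired analysis was possible because each rat had 1 treatment, so that none pairs the arms; of the rats compared by growth class, 2 held both classes.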
